A study of Mus musculus castaneus and Mus musculus domesticus with 13 samples.

Results

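Zfp42, Triml1 and Triml2 are 3 neighbouring protein-coding genes of mouse chromosome 8, and they showed opposite strain patterns in mouse embryonic stem cell lines. They were picked by symbol as 3 of the 21706 genes in the count table, and the choice was made because of their levels in CASP, CAST and B6D2F1 lines. Their strain differences are therefore described without a test. In CASP lines Zfp42 stood at 585 ± 117 CPM, against 195 ± 32.7 CPM in CAST lines (counts scaled to library size, mean ± SD, n = 4 lines each). Triml2 went the other way, with 0.381 ± 0.226 CPM in CASP lines and 73.6 ± 7.43 CPM in CAST lines (SD, n = 4 each). Triml1 had 0.434 ± 0.131 CPM in CASP lines, against 8.52 ± 2.23 CPM in CAST lines (SD, n = 4 each).

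Zfp42 encodes the zinc-finger protein REX1, a relative of the transcription factor YY1 and a standard marker of naive mouse ESCs that is switched off when the cells leave the naive state. REX1 is degraded through the ubiquitin ligase RLIM, and in mouse ESCs it restrains Xist, the RNA that starts X chromosome inactivation. Triml1 and Triml2 encode tripartite-motif-like proteins, related to the large TRIM family, which is best known for ubiquitin ligases. Human TRIML2 is a target of the tumour suppressor p53.

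The data were poly(A) RNA sequencing of 13 libraries, 10 of them from ESC lines made by somatic cell nuclear transfer (ntESCs) from blood leukocytes. The ntESC lines came from CASP/1Nga (CASP, n = 4: #M3, #M5, #F4 and #F6), CAST/Ei (CAST, n = 4: #M2, #M8, #F1 and #F2) and B6D2F1 mice (n = 2: #M3 and #F2), where M is male and F is female. CASP and CAST are wild-derived strains of Mus musculus castaneus, and B6D2F1 is a laboratory hybrid of C57BL/6NCrSlc and DBA/2CrSlc. Nuclei of all ntESC lines were placed in B6D2F1 oocytes. The other libraries were 1 fertilization-derived B6D2F1 ESC line, 1 B6D2F1 embryonic fibroblast culture (MEF) and 1 CAST tail-tip fibroblast culture. The labels call the genotype of the ntESCs SCNT and that of the other cells WT, and name no other allele. All ntESCs grew in 2i/LIF on C57BL/6NCrSlc feeder MEFs, which were removed by plating on gelatin before RNA extraction, so that traces of feeder RNA may be in every ntESC library. Each line gave 1 library, the labels name no batch, and ages of the leukocyte donors are not given in the sources used here. Reads of all strains were aligned to the same reference, the C57BL/6J assembly GRCm38. Library totals ran between 33395162 and 49968894 counts.

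The 3 genes lie within 177 kb. Triml1 (ENSMUSG00000031651) occupies chr8:43129807-43141486 on the minus strand of GRCm38. Triml2 (ENSMUSG00000091490) starts 39.1 kb further on, at chr8:43180541-43193881 on the plus strand. Zfp42 (ENSMUSG00000051176) follows after a gap of 101 kb, at chr8:43295063-43306980 on the minus strand. In GENCODE M21 the exons cover 1881 bases for Zfp42, 2792 for Triml1 and 3693 for Triml2. Coding transcripts of Triml1 and Triml2 were alike to 65.6% over 526 aligned bases. Over shorter stretches, other transcripts of them matched several further genes more closely. A retained-intron transcript of Triml2 matched Dph6, Gm15965 and Ilf2 equally, at 97.0% over 133 bases. A processed transcript of Triml1 matched Gm14565, Gm34923 and Olfr607 at 86.0%, 84.8% and 84.6% over 487 bases each.

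Zfp42 has closer relatives in its coding part. Its transcript matched the pseudogene Zfp42-ps1 (ENSMUSG00000115993, chr15:93679160-93679649, minus strand) at 98.1% over 266 bases and Yy1 at 76.1% over 327 bases, and both stretches lie in the coding part for the zinc fingers. The 120 bases of the last of 4 Zfp42 exons at chr8:43295742-43295861 (minus strand) are shown because reads from them decide how counts were split between gene and pseudogene. The pseudogene stretch comes from chr15:93679306-93679425 (minus strand), and the Yy1 stretch runs across exons 4 and 5 of its transcript on chromosome 12. Sequences are from the GENCODE M21 transcripts, 5′ to 3′, and capitals mark bases that differ from Zfp42.
Zfp42: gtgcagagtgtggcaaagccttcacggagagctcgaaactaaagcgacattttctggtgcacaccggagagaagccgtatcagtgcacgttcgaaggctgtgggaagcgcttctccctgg
Zfp42-ps1: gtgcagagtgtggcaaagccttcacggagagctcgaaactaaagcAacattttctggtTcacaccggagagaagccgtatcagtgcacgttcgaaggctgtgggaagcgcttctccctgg
Yy1: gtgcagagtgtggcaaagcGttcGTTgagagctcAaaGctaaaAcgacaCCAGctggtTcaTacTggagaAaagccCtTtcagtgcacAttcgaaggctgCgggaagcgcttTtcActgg
Within this stretch the pseudogene differed from Zfp42 at 2 of 120 bases and Yy1 at 21 of 120. The split of counts between Zfp42 and Zfp42-ps1 is therefore uncertain.

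Zfp42 had the highest CPM per kb of exon of the 3 genes in every ESC library. In CASP lines it had 508 CPM (#M3), 573 CPM (#M5), 754 CPM (#F4) and 505 CPM (#F6). In CAST lines it had 223 CPM (#M2), 173 CPM (#M8), 162 CPM (#F1) and 224 CPM (#F2), and in B6D2F1 ntESC lines 118 CPM (#M3) and 116 CPM (#F2). The order of strains was CASP above CAST above B6D2F1, with no overlap at either step. The lowest CASP line (505 CPM) exceeded the highest CAST line (224 CPM). The lowest CAST line (162 CPM) exceeded the highest B6D2F1 line (118 CPM). Because these levels chose the genes, the separation is a description only. The share of all genes that separate in this way was not computed. The mean in CASP lines was 2.996 times that in CAST lines and 5.00 times that in B6D2F1 lines, and the CAST mean was 1.67 times the B6D2F1 mean. The fitted log2 fold changes were 1.58 (SE 0.15) for CASP against CAST, 2.30 (SE 0.21) for CASP against B6D2F1 and 0.73 (SE 0.19) for CAST against B6D2F1. In bulk RNA, fewer cells expressing a gene and less RNA of it per cell cannot be told apart.

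Among the ESC libraries, Triml2 was low in CASP lines alone. CASP lines had 0.261 CPM (#M3), 0.546 CPM (#M5), 0.593 CPM (#F4) and 0.124 CPM (#F6), which rest on counts of 9, 19, 23 and 4. CAST lines had 80.8 CPM (#M2), 67.5 CPM (#M8), 66.9 CPM (#F1) and 79.3 CPM (#F2), and B6D2F1 ntESC lines had 52.1 CPM (#M3) and 51.9 CPM (#F2). The CASP mean was 193-fold below the CAST mean and 136-fold below the B6D2F1 mean. The log2 fold changes were -7.56 (SE 0.30) for CASP against CAST and -7.07 (SE 0.31) for CASP against B6D2F1. Between CAST and B6D2F1 lines Triml2 differed by less, at 0.49 on the log2 scale (SE 0.25, 95% interval -0.06 to 1.04). The lowest CAST line (66.9 CPM) lay above the higher B6D2F1 ntESC line (52.1 CPM), which only describes genes chosen by these levels. The B6D2F1 ESC library stood between them, at 64.2 CPM. Low as they were, CASP counts were not 0. The exact Poisson 95% interval, which covers counting error only, was 0.376 to 0.891 CPM for #F4 and 0.0337 to 0.316 CPM for #F6. Whether these few reads came from Triml2 is uncertain, since 133 bases of its retained-intron transcript matched several other genes at 97.0%.

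Triml1 fell into 3 steps in the order opposite to Zfp42. CASP lines had 0.464 CPM (#M3), 0.402 CPM (#M5), 0.593 CPM (#F4) and 0.278 CPM (#F6), from counts of 16, 14, 23 and 9. CAST lines had 9.94 CPM (#M2), 8.10 CPM (#M8), 5.55 CPM (#F1) and 10.5 CPM (#F2), and B6D2F1 ntESC lines had 22.3 CPM (#M3) and 27.5 CPM (#F2). No line of one strain reached the range of the next. As for Zfp42, this separation only describes genes chosen by these levels. The CASP mean was 19.6-fold below the CAST mean and 57.4-fold below the B6D2F1 mean, and the CAST mean was 2.92-fold below the B6D2F1 mean. The log2 fold changes were -4.28 (SE 0.29) for CASP against CAST, -5.84 (SE 0.32) for CASP against B6D2F1 and -1.56 (SE 0.27) for CAST against B6D2F1. Triml1 and Triml2 thus shared the low level in CASP lines but not the order of the other strains, since Triml1 was lower in CAST than in B6D2F1 lines and Triml2 was higher. As background, edgeR called 31.6% of all genes tested between CASP and CAST, 35.5% between CASP and B6D2F1 and 32.7% between CAST and B6D2F1, and because the 3 genes were chosen on these contrasts nothing is read from their place among them.

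**Figure D1:**
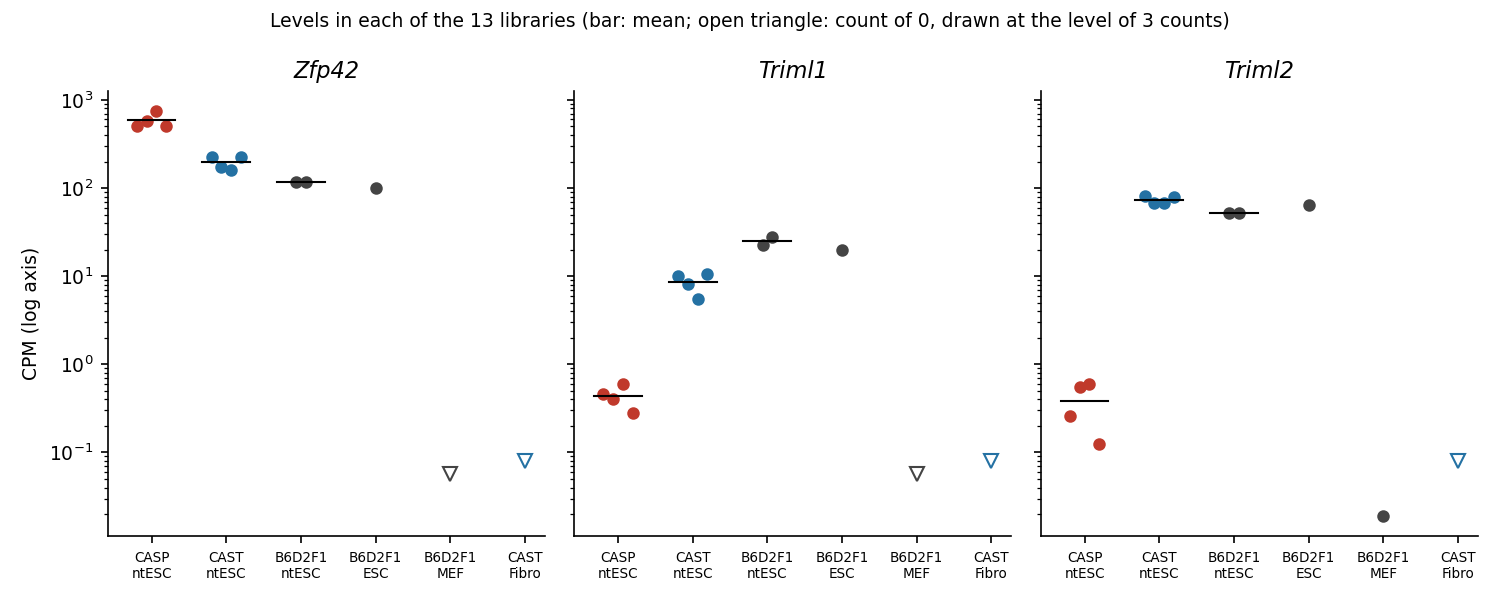
CPM of Zfp42, Triml1 and Triml2 on a shared log axis, with 1 point per library, grouped by strain and cell type. Zfp42 runs between 505 and 754 CPM in CASP lines, above all CAST and B6D2F1 lines, whereas Triml1 and Triml2 reach at most 0.593 CPM in CASP lines and at least 5.55 CPM in the other ESC libraries. Open triangles stand for a count of 0 and are drawn at the level of 3 counts.

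Compared per kilobase of exon, the balance within the locus turned on strain. In CASP lines Zfp42 had between 2059 (#M5) and 8022 (#F6) times the CPM per kb of Triml2. In CAST lines this ratio ran between 4.74 and 5.54, and in B6D2F1 ntESC lines it was 4.45 (#M3) and 4.39 (#F2). Zfp42 thus made up 99.90% to 99.95% of the summed CPM per kb of the 3 genes in CASP lines, 81.0% to 82.5% in CAST lines and 72.1% to 74.0% in B6D2F1 ntESC lines. The ratio of Triml2 to Triml1 per kb was 0.336 to 1.03 in CASP lines, 5.71 to 9.12 in CAST lines and 1.43 to 1.76 in B6D2F1 ntESC lines. The value of 0.336 (#F6) rests on 4 counts of Triml2 and 9 of Triml1.

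The fertilization-derived B6D2F1 ESC line had no replicate. It stood at 99.996 CPM for Zfp42, 64.2 CPM for Triml2 and 19.6 CPM for Triml1. The means of the B6D2F1 ntESC lines were 117 ± 1.45 CPM for Zfp42, 52.0 ± 0.114 CPM for Triml2 and 24.9 ± 3.64 CPM for Triml1 (SD, n = 2). The ESC library was at 0.786 to 1.23 times the B6D2F1 ntESC mean for the 3 genes. For Triml2 it lay nearer to the lowest CAST line (66.9 CPM) than to either B6D2F1 ntESC line, and for Zfp42 and Triml1 it lay below both B6D2F1 ntESC lines.

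Counts assigned to Zfp42-ps1 also differed between strains. It had 11.9 CPM (#M3), 13.6 CPM (#M5), 17.4 CPM (#F4) and 12.3 CPM (#F6) in CASP lines. It had 15.9 CPM (#M2), 11.2 CPM (#M8), 9.59 CPM (#F1) and 15.3 CPM (#F2) in CAST lines, and 0.707 CPM (#M3) and 0.578 CPM (#F2) in B6D2F1 ntESC lines. Both castaneus strains were thus far above B6D2F1 and overlapped each other. The log2 fold change was 4.40 (SE 0.34, adjusted p = 6.4e-06 by edgeR) for CASP against B6D2F1, 4.32 (SE 0.33, adjusted p = 9.5e-06 by edgeR) for CAST against B6D2F1 and 0.08 (SE 0.20, adjusted p = 0.802 by edgeR) for CASP against CAST. The pseudogene took 2.25% to 2.37% of the CPM of both in CASP lines, 5.60% to 6.65% in CAST lines and 0.496% to 0.595% in B6D2F1 ntESC lines. Within each castaneus strain it was high in the same lines as Zfp42. With its counts added, Zfp42 stood at 599 ± 119 CPM in CASP, 208 ± 35.8 CPM in CAST and 118 ± 1.54 CPM in B6D2F1 lines (SD, n = 4, 4 and 2). The order of strains held with those counts added. Pseudogene reads already counted as Zfp42, and Zfp42 reads counted as Zfp42-ps1, could not be checked. Whether Zfp42-ps1 itself differed between strains is therefore not settled by these p-values.

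**Figure D2:**
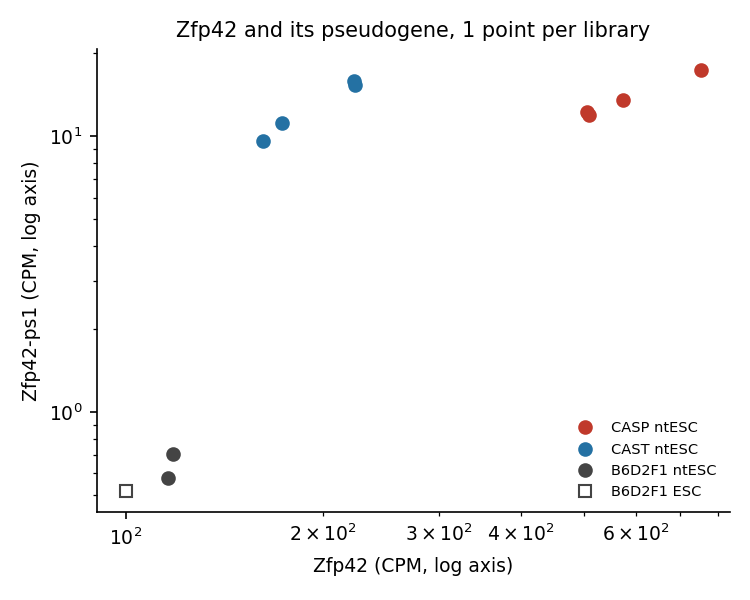
CPM of Zfp42-ps1 against CPM of Zfp42, both on log axes, with 1 point per ESC library. The CASP and CAST lines lie at 9.59 to 17.4 CPM of Zfp42-ps1, and the B6D2F1 libraries at 0.516 to 0.707 CPM.

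Around the locus, strain differences of the 3 genes were set beside those of their neighbours. Within 2 Mb of the 3 genes GENCODE M21 holds 50 genes, of which 16 are in the count table, 13 of them neighbours. Between CASP and CAST 5 of the 13 neighbours passed the threshold (4 higher and 1 lower in CASP, 38.5%), against 31.6% of all genes tested. Between CASP and B6D2F1 it was 4 of 13 (3 higher and 1 lower, 30.8%), against 35.5%. Between CAST and B6D2F1 it was 2 of 13 (1 higher and 1 lower, 15.4%), against 32.7%. These shares lie near or below those of all genes. The first count was 3 without CASP #F4, and the last was 1 when either of the B6D2F1 lines was left out.

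A single neighbour followed Triml2. Gm6284 (ENSMUSG00000109991, chr8:43158754-43163944, plus strand), a processed pseudogene alike to Baz2a at 84.3% over 4378 aligned bases, lies between Triml1 and Triml2. It was singled out after its values were seen. It had 0.0580 CPM (#M3), 0.402 CPM (#M5), no count (#F4) and 0.185 CPM (#F6) in CASP lines. In CAST lines it had 6.48 CPM (#M2), 5.68 CPM (#M8), 5.75 CPM (#F1) and 6.84 CPM (#F2), and in B6D2F1 ntESC lines 6.04 CPM (#M3) and 7.30 CPM (#F2). Gm6284 was lower in CASP lines by both contrasts, with a log2 fold change of -5.28 against CAST (SE 0.58, adjusted p = 9.9e-05 by edgeR) and of -5.40 against B6D2F1 (SE 0.62, adjusted p = 1.1e-04 by edgeR). Between CAST and B6D2F1 lines it differed by -0.13 (SE 0.52, adjusted p = 0.878 by edgeR). Baz2a itself, which encodes a subunit of a nucleolar chromatin remodelling complex, stood at 401 ± 15.1 CPM in CASP, 333 ± 26.1 CPM in CAST and 531 ± 0.306 CPM in B6D2F1 lines (SD, n = 4, 4 and 2). Triml1, Gm6284 and Triml2, which follow each other along the chromosome among the table genes, were thus low in CASP lines, and Zfp42, the next table gene, was high.

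The next table gene beyond Triml1, Gm6180, went the other way. Gm6180 (ENSMUSG00000053038, chr8:42246911-42247408) is a processed pseudogene alike to the actin-severing gene Cfl1 at 98.8% over 498 aligned bases, so its counts may include Cfl1 reads. It too was named after its values were seen. It stood at 101 ± 9.73 CPM in CASP, 6.03 ± 0.767 CPM in CAST and 7.63 ± 0.280 CPM in B6D2F1 lines (SD, n = 4, 4 and 2). Its log2 fold change was 4.07 for CASP against CAST (SE 0.13, adjusted p = 4.7e-08 by edgeR).

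On the far side of Zfp42, the next gene in the table with a proper symbol was Fat1, which encodes a giant cadherin. Fat1 stood at 534 ± 160 CPM in CASP lines, 278 ± 14.3 CPM in CAST lines and 279 ± 44.2 CPM in B6D2F1 lines (SD, n = 4, 4 and 2). It was higher in CASP by 0.90 against CAST (SE 0.14, adjusted p = 8.2e-04 by edgeR) and by 0.90 against B6D2F1 (SE 0.17, adjusted p = 0.00267 by edgeR). Between CAST and B6D2F1 lines Fat1 differed by -0.0015 (SE 0.17, adjusted p = 0.997 by edgeR), so it shared with Zfp42 the high level in CASP lines but not the step between CAST and B6D2F1. Mtus1, which encodes a microtubule-associated protein, was higher in CASP (1.29, SE 0.21, adjusted p = 0.00109 by edgeR) and in CAST (1.34, SE 0.21, adjusted p = 9.96e-04 by edgeR) than in B6D2F1 lines. Asah1, which encodes the lysosomal acid ceramidase, was higher in CASP than in CAST lines by 0.34 (SE 0.11, adjusted p = 0.0368 by edgeR) and lower in CAST than in B6D2F1 lines by a log2 fold change of -0.47 (SE 0.13, adjusted p = 0.0186 by edgeR). Fgl1, which encodes a secreted fibrinogen-like protein, was higher in CASP than in CAST lines by 1.40 (SE 0.37, adjusted p = 0.0156 by edgeR) at a mean of only 1.06 CPM in CASP lines.

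**Figure D3:**
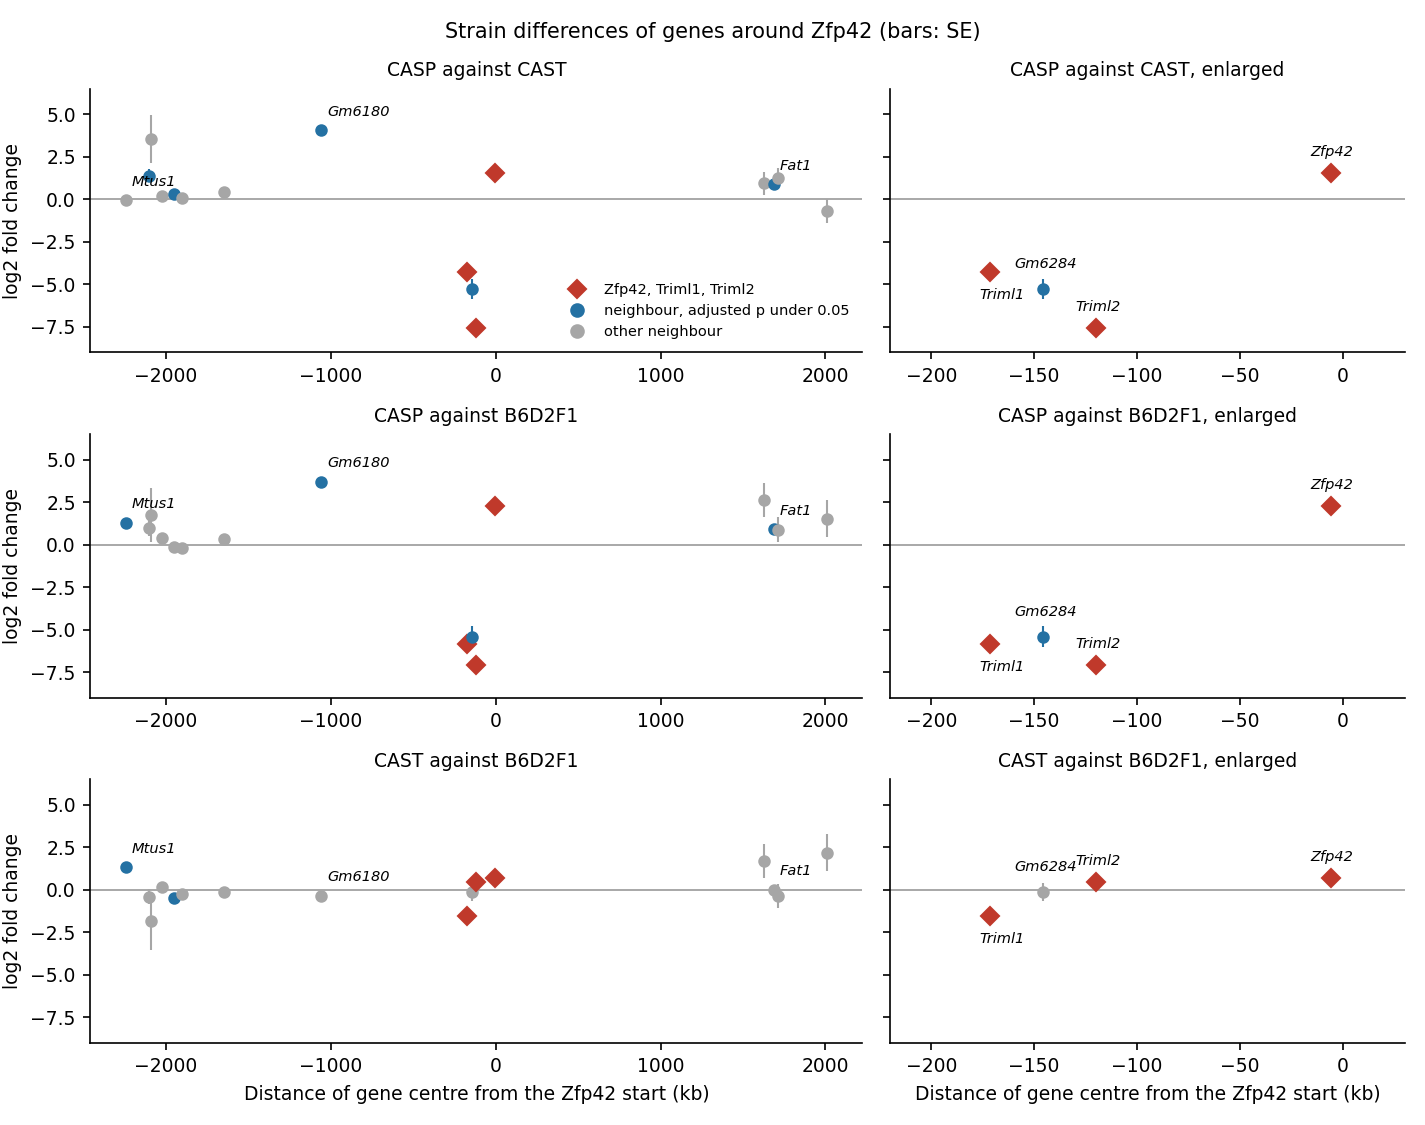
log2 fold change, with its SE as a bar, of the 16 table genes within 2 Mb, by distance of the gene centre from the Zfp42 start in kb, in 3 strain comparisons, with the stretch around the 3 genes enlarged on the right. Triml1, Gm6284 and Triml2 lie between -4.28 and -7.56 for CASP against CAST, and Zfp42 lies at 1.58.

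A single CASP line stood apart on chromosome 8. In CASP #F4, 610 chromosome 8 genes had a median 0.48 above the mean of the other CASP lines on the log2(CPM + 1) scale, while the median of all genes differed by -0.02. The other CASP lines lay between -0.19 and -0.10 on chromosome 8, and the CAST and B6D2F1 lines between -0.02 and 0.02. The mean that each other CASP line was set against includes #F4, which lowers its value. The values of the 2 B6D2F1 lines mirror each other by construction. Zfp42 deviated by 0.51 in CASP #F4, close to the median of the chromosome, and Triml1 and Triml2 deviated by 0.21 and 0.30. For Triml1 and Triml2 the added 1 exceeds the CPM in CASP lines and shrinks the deviation. In plain CPM both genes had 0.593 in #F4, against means of 0.381 (Triml1) and 0.310 (Triml2) in the other CASP lines. Their deviations are therefore not comparable with that of Zfp42 or of the chromosome. Without CASP #F4 the CASP mean of Zfp42 was 2.71 times the CAST mean and 4.52 times the B6D2F1 mean, and the CASP mean of Triml2 was 237-fold below the CAST mean. Of the neighbours, Fgl1 and Asah1 then missed the threshold between CASP and CAST (edgeR adjusted p = 0.0539 and 0.0679), which left 3 of 13, and Fat1 kept a log2 fold change of 0.91 (edgeR adjusted p = 0.00191). In CAST lines, where the chromosome 8 medians hardly differed, all 3 genes were above the other lines in #M2 and #F2 and below them in #M8 and #F1, with the widest deviation for Triml1 in #F1 (-0.68).

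**Figure D4:**
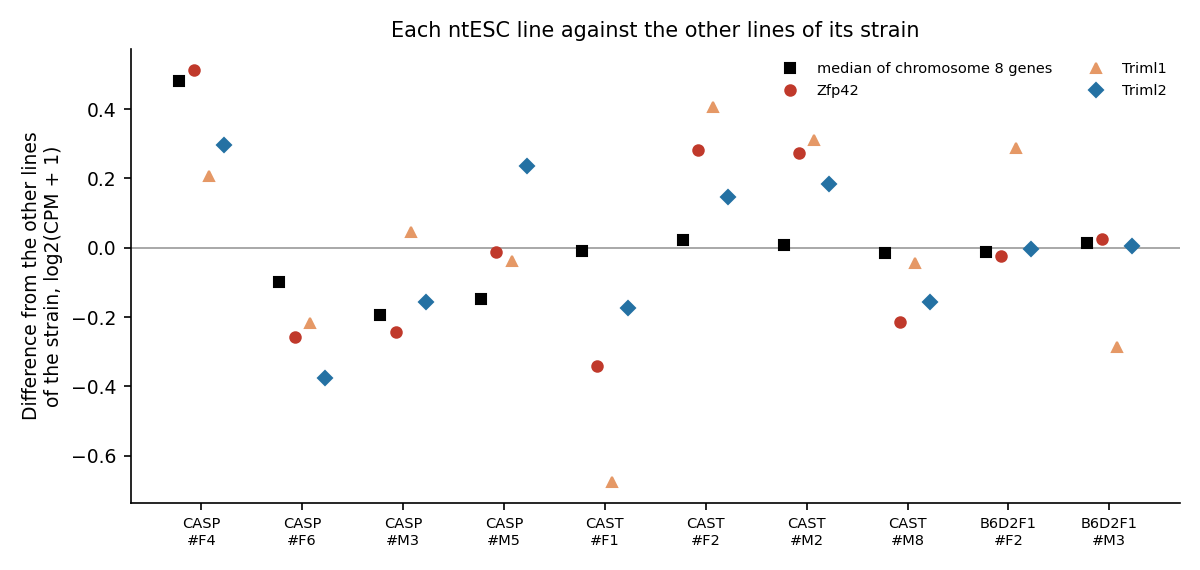
Difference of each ntESC line from the mean of the other lines of its strain on the log2(CPM + 1) scale, for the median of chromosome 8 genes and for Zfp42, Triml1 and Triml2. CASP #F4 has a chromosome 8 median of 0.48 and a Zfp42 value of 0.51, and the chromosome 8 medians of the CAST and B6D2F1 lines lie within 0.02 of 0. In CASP lines the added 1 exceeds the CPM of Triml1 and Triml2 and shrinks their deviations.

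Sex, which played no part in the choice of the genes, made no detectable difference. Zfp42 averaged 629 CPM in female and 541 CPM in male CASP lines, 193 CPM in female and 198 CPM in male CAST lines, and 116 CPM and 118 CPM in the female and the male B6D2F1 line. Over 5 female and 5 male lines with strain as a covariate, the log2 fold change of Zfp42 was 0.06 (95% interval -0.24 to 0.36, edgeR adjusted p = 0.988). Triml2 differed by -0.04 (95% interval -0.51 to 0.43, edgeR adjusted p = 0.997) and Triml1 by -0.01 (95% interval -0.53 to 0.51, edgeR adjusted p = 0.998). None of the 3 genes passed the threshold in edgeR, at an unadjusted p under 0.05 or in DESeq2, where edgeR called 0.0494% of all genes (10 of 20226). Within CAST and CASP lines, the test of whether the sex difference varied with strain also called 0 of 3 in edgeR, at an unadjusted p under 0.05 and in DESeq2, against 0.0151% of all genes. The intervals of that difference were wide, with -0.48 to 1.02 for Zfp42, -1.25 to 1.67 for Triml1 and -1.67 to 1.52 for Triml2.

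All 3 genes had counts in every stem cell library and were next to absent in fibroblasts. The 10 ntESC lines averaged 335 ± 228 CPM for Zfp42 and 8.57 ± 9.59 CPM for Triml1 (SD), whereas neither gene had a count in the MEF library or in the CAST fibroblast library. Against a floor of 3 counts per fibroblast library (0.0790 CPM), the ntESC mean was at least 4247-fold higher for Zfp42 and at least 108-fold higher for Triml1. For Triml1 the CASP mean alone was only at least 5.50-fold higher. For Triml2 the ntESC mean (40.0 ± 35.4 CPM, SD, n = 10) was 3614 times the fibroblast level. That level rests on 1 count in the MEF library, with a counting interval of the ratio of 649 to 142760. The ratio does not hold for CASP lines, whose Triml2 mean was 0.381 CPM, beside the floor of 0.0790 CPM. In CASP #F6 it rested on 4 counts. The Triml2 fold is a ratio and the other folds are lower bounds, so the 3 are not on one basis. The 3 genes passed the filter on low counts only through the ESC libraries, which fixed their direction, so no test of them is given for this contrast, in which edgeR called 51.8% of all genes. Markers of fibroblasts or feeders (11 genes) had a summed level of 71.0 to 416 CPM in ntESC lines, against 6047 to 8046 CPM in the fibroblast libraries.

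Genes that act with or upstream of Zfp42 were set beside it. Of 16 factors that bind or feed the Zfp42 promoter in mouse ESCs, 7 were higher and 1 was lower in CASP than in CAST lines, with a median log2 fold change of 0.29 beside -0.02 over all genes. These are 8 of 16, beside 31.6% of all genes called. Nr5a2, an orphan nuclear receptor, was higher by 1.51 (130 ± 16.8 CPM in CASP, 46.0 ± 11.5 CPM in CAST, SD, n = 4 each, edgeR adjusted p = 1.05e-04). Prdm14, a regulator of the naive state, was higher by 0.85 (edgeR adjusted p = 0.00335), Sox2 by 0.83 (edgeR adjusted p = 7.1e-05) and Sall4 by 0.76 (edgeR adjusted p = 2.6e-04). Klf5, which encodes a Krüppel-like factor, was lower, by a log2 fold change of -0.54 (edgeR adjusted p = 8.5e-04). Against B6D2F1, 3 of the 16 were higher and 3 lower in CASP lines (37.5% called beside 35.5% of all genes, median 0.01 beside 0.02). In CAST lines 6 were lower than in B6D2F1 lines (37.5% called beside 32.7% of all genes, median -0.32 beside 0.03). There 0 of 16 were higher by edgeR, at an unadjusted p under 0.05 and by DESeq2. The part of these factors in the level of Zfp42 was not tested. Nanog and Esrrb, named after their values were seen, differed by no more than 0.12 in either direction in any comparison, and none of these differences passed the threshold.

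Neither of the genes for YY1 and its copy YY2, the closest relatives of REX1, passed the threshold in a strain comparison. Yy1 stood at 129 ± 13.8 CPM in CASP, 116 ± 6.96 CPM in CAST and 134 ± 0.270 CPM in B6D2F1 lines (SD, n = 4, 4 and 2), and the edgeR adjusted p lay between 0.167 and 0.662. Of the 9 genes of the REX1 family and of X-inactivation partners, 1 was higher and 2 were lower in CASP than in CAST lines (33.3% called beside 31.6% of all genes, median -0.30 beside -0.02), a share near that of all genes. Rybp, which encodes a YY1-binding Polycomb protein, was higher by 0.44 (edgeR adjusted p = 0.00177), and Xist was lower, with a log2 fold change of -0.56 (edgeR adjusted p = 0.0328) and 12.0 ± 3.77 CPM in CASP, against 18.2 ± 8.76 CPM in CAST lines (SD, n = 4 each). Jpx, an RNA gene beside Xist, was also lower, at 0.623 ± 0.234 CPM in CASP and 1.65 ± 0.640 CPM in CAST lines (SD, n = 4 each, log2 fold change -1.39, edgeR adjusted p = 0.0161). Against B6D2F1, 1 of the 9 was higher and 0 of 9 were lower in CASP lines by edgeR, at an unadjusted p under 0.05 and by DESeq2, and 2 were higher and 1 lower in CAST lines (11.1% called beside 35.5% of all genes for CASP, and 33.3% beside 32.7% for CAST). Among these CAST calls Jpx was higher in CAST by 3.18, at a mean of only 1.65 CPM (edgeR adjusted p = 0.00179). Rybp was lower, by a log2 fold change of -0.59 (edgeR adjusted p = 9.0e-04). Rlim, the ligase that targets REX1, was higher in CAST by 0.69 (464 ± 120 CPM in CAST, 283 ± 67.9 CPM in B6D2F1, SD, n = 4 and 2, edgeR adjusted p = 0.0266).

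Of the p53 family and its targets 13 genes were set beside Triml2, of which 12 passed the filter on low counts. In CAST lines 8 of the 12 were higher than in B6D2F1 lines and none was lower by edgeR or DESeq2, with 2 lower at an unadjusted p under 0.05 (66.7% called beside 32.7% of all genes, median 0.89 beside 0.03). In CASP lines 7 were higher and 2 lower than in B6D2F1 lines (75.0% called beside 35.5% of all genes, median 0.60 beside 0.02). Cdkn1a, the cell cycle inhibitor p21, stood at 323 ± 44.5 CPM in CASP, 295 ± 47.9 CPM in CAST and 114 ± 12.4 CPM in B6D2F1 lines (SD, n = 4, 4 and 2), higher than in B6D2F1 lines by 1.48 in CASP (edgeR adjusted p = 1.3e-04) and by 1.36 in CAST (edgeR adjusted p = 2.7e-04). Ccng1, which encodes cyclin G1, was higher by 1.30 in CASP (edgeR adjusted p = 2.4e-04) and by 1.27 in CAST (edgeR adjusted p = 3.4e-04). Between CASP and CAST 3 of the 12 were higher and 3 lower (6 of 12 called beside 31.6% of all genes, median -0.05 beside -0.02). The widest difference was in Trp73, a p53 relative, with 3.56 ± 1.11 CPM in CASP and 136 ± 42.8 CPM in CAST lines (SD, n = 4 each, log2 fold change -5.25, edgeR adjusted p = 8.6e-07). In B6D2F1 lines Trp73 had 7.43 ± 4.43 CPM (SD, n = 2). The part of these genes in the level of Triml2 was not tested.

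**Figure D5:**
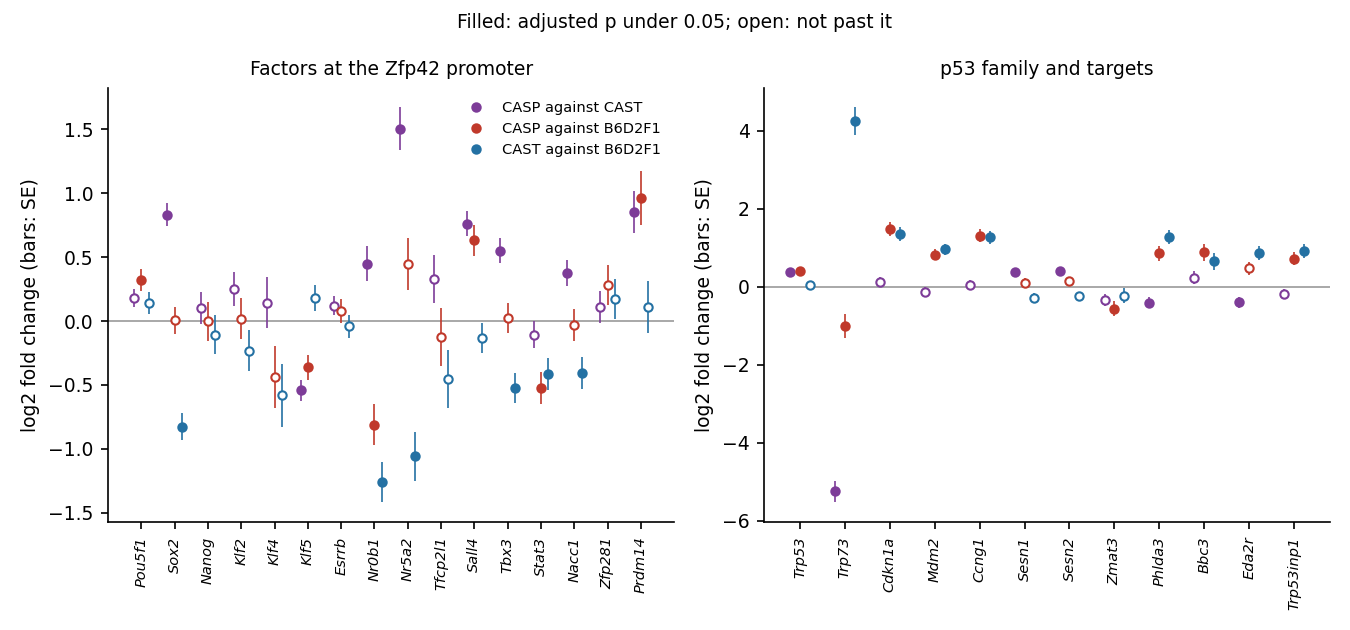
log2 fold change, with its SE as a bar, of factors at the Zfp42 promoter and of genes of the p53 family and its targets, in 3 strain comparisons, with filled points past an adjusted p of 0.05 in edgeR. Nr5a2 lies at 1.51 for CASP against CAST, and Trp73 lies at -5.25 for CASP against CAST and at 4.25 for CAST against B6D2F1.

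Genes of the TRIM family were called in both directions, at shares near those of all genes. Of 60 genes named Trim with a number, 58 passed the filter, and 13 were higher and 10 lower in CASP than in CAST lines (39.7% called beside 31.6% of all genes, median 0.06 beside -0.02). Against B6D2F1, 13 were higher and 6 lower in CASP lines (32.8% called beside 35.5% of all genes) and 10 higher and 8 lower in CAST lines (31.0% beside 32.7%). Trim12a, a gene of the Trim5 antiviral cluster, had 5.41 ± 2.38 CPM in CASP, against 0.248 ± 0.0567 CPM in CAST lines (SD, n = 4 each, log2 fold change 4.40, edgeR adjusted p = 1.0e-05). It differed in the direction opposite to Triml1 and Triml2. Its near copies in that cluster may share reads, so its counts are uncertain. Trim50 went the same way as Triml1 and Triml2. It had 1.01 ± 0.455 CPM in CASP, against 6.46 ± 2.44 CPM in CAST lines (SD, n = 4 each, log2 fold change -2.62, edgeR adjusted p = 6.6e-04).

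Sums of some cell state markers differed between strains. Primitive endoderm markers (8 genes) summed to 181 to 271 CPM in CASP, 96.2 to 127 CPM in CAST and 41.4 to 45.5 CPM in B6D2F1 lines. Most of this sum came from Col4a1, a basement membrane collagen gene (means of 134, 74.7 and 34.1 CPM in CASP, CAST and B6D2F1 lines), and from Dab2, an endocytic adaptor gene (80.5, 28.8 and 2.33 CPM). The endoderm transcription factor genes did not share that full order. Gata6 had 3.36, 1.72 and 1.76 CPM and was higher in CASP than in CAST lines (log2 fold change 0.93, edgeR adjusted p = 0.0338). Gata4 had 2.55, 1.18 and 1.66 CPM (CASP against CAST 1.09, edgeR adjusted p = 0.0998). Sox7, Sox17 and Foxa2 were below 1 CPM on average in each strain. Markers of the 2-cell-like state (7 of 8 in the table) summed to 0.679 to 3.19 CPM in CASP, 1.91 to 5.04 CPM in CAST and 5.62 to 24.3 CPM in B6D2F1 lines, with overlap between CASP and CAST. Zscan4c, one of the Zscan4 genes that carried the B6D2F1 sum, averaged 4.69 ± 4.48 CPM there (SD, n = 2), and Duxf3 and Tcstv3 did not follow the order of the sums. Naive markers (8 genes) summed to 2365 to 2802 CPM in CASP, 2047 to 2488 CPM in CAST and 2541 to 2595 CPM in B6D2F1 lines, with overlap, and primed markers (8 genes) to 212 to 285 CPM, 212 to 295 CPM and 227 to 252 CPM in the same strains. Trophoblast markers (7 of 8 in the table) summed to 37.3 to 47.3 CPM, 28.5 to 45.5 CPM and 18.8 to 19.6 CPM. Against B6D2F1, 3 of the 7 were higher and 1 lower in CASP lines (57.1% called beside 35.5% of all genes). In CAST lines 2 were higher and 1 lower (42.9% beside 32.7%). The lower gene was Gata3 in both, at -1.11 in CASP (edgeR adjusted p = 0.0292) and -1.55 in CAST (edgeR adjusted p = 0.0065). No marker of these lists was at 0 in all ntESC lines, and the part of the marker levels in the strain differences of the 3 genes was not tested.

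Across the 10 ntESC lines the log2(CPM + 1) of Triml2 correlated with that of Triml1 at Pearson r = 0.917 and with that of Gm6284 at r = 0.990, and that of Zfp42 correlated with Triml1 at r = -0.947 and with Triml2 at r = -0.906. These are descriptions over 10 lines that fall into 3 strains, so each coefficient mainly restates the strain means. Among 10292 genes with a proper symbol and a mean of at least 5 CPM, the patterns most like Zfp42 were those of the pseudogene Nutf2-ps2 (r = 0.990), B3galnt1, a glycosyltransferase gene (r = 0.979), and the zinc-finger gene Zfp808 (r = 0.978), and the most opposite was Pias3, a SUMO ligase gene (r = -0.993). Most like Triml1 were Pex7, a peroxisomal import receptor gene (r = 0.992), Chtop, an mRNA export factor gene (r = 0.989), and Tnfrsf8, which encodes CD30 (r = 0.985), and most opposite was Acss1, a mitochondrial acetyl-CoA synthetase gene (r = -0.990). Most like Triml2 were the receptor kinase gene Ror2, the adhesion molecule gene Pecam1 and the mRNA cleavage factor gene Cpsf3 (r = 0.993 each), and most opposite was the pseudogene Rpl12-ps1 (r = -0.997). Pecam1 had 6.90 ± 2.41 CPM in CASP, 206 ± 17.6 CPM in CAST and 145 ± 9.62 CPM in B6D2F1 lines (SD, n = 4, 4 and 2), the same order of strains as Triml2.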

How the data were processed

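Poly(A) RNA of 13 libraries was sequenced with a stranded kit as paired ends. Per the labels and the study's methods, read filtering used fastp 0.22.0, alignment to GRCm38 used HISAT2 2.2.1 and quantification used StringTie 2.1.7. Whether counting used strand is not given in the sources used here. The deposited count table holds whole counts of 21706 genes without normalization. Values of the other deposited table are on a log2 scale that the authors computed, log2(count / DESeq2 size factor + 4), and served as an alternative.

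CPM used TMM scaling over the 13 libraries, by edgeR 4.0.16. Positions came from GENCODE M21 (same build), in which 21675 of the genes were found. Group differences were fitted over all genes after filterByExpr with the edgeR quasi-likelihood test and Benjamini-Hochberg adjustment at a threshold of 0.05. Strain contrasts had sex as a covariate and the sex contrast had strain. The ESC library entered no test. Groups came from the labels. Nothing in the labels says that lines came from separate animals, so p-values measure the spread between lines. The sex, fibroblast and interaction contrasts were tried on simulated data, and the strain contrasts were not. Alternatives were RLE factors, library size only, no filter, DESeq2 1.42.0, no covariate, autosomal genes only, a 1 Mb window, leaving out each library, and, chosen after seeing the data, adding Zfp42-ps1 counts to Zfp42.

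The members and lists were chosen with earlier results of these data known. By rule, the 3 genes were given in all libraries. Neighbours were named where called, with a proper symbol and at least 1 CPM in the higher strain. The genes of highest (3) and lowest (1) correlation with each gene were named too. From a list up to 4 called genes of largest change were to be named, but this was not followed in every list. Klf5 was a further name, and in some lists called genes of larger change than a named one were left out. Transcripts were compared with blastn at an E value limit of 1e-05. Library totals of 33395162 to 49968894 counts put the level of 3 counts at 0.0573 to 0.0927 CPM.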

Additional observations from a re-analysis of the deposited data

How the results depend on the processing

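All strain log2 fold changes of Zfp42, Triml1 and Triml2 kept their sign under every alternative run. Zfp42 lay between 1.44 and 1.67 for CASP against CAST and between 2.17 and 2.39 for CASP against B6D2F1, and Triml2 between -7.88 and -7.28 and between -7.38 and -6.79. The sex contrast called 10 genes, 92 with DESeq2, none among autosomal genes with edgeR (1019 of 19354 at an unadjusted p under 0.05; DESeq2 was not run on these) and 8 to 13 when each line was left out. Neighbours called between CASP and CAST were 5, or 3 to 6 when each line was left out, the lowest without CASP #F4. Between CAST and B6D2F1 they were 2, or 1 to 2, the lowest when either of the B6D2F1 lines was left out. With a window of 1 Mb only 2 neighbours remained, Gm6180 and Gm6284, and 2, 2 and 0 of them were called for CASP against CAST, CASP against B6D2F1 and CAST against B6D2F1 (at an unadjusted p under 0.05, 1 in edgeR; DESeq2 called 0). The cause of these changes was not tested, apart from the smaller number of genes in the narrow window. The interaction of sex and strain called none of the 3 genes under any alternative run.

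No paired analysis was possible because line numbers name separate lines and do not pair samples across strains. The precision is limited by 2 B6D2F1 lines, by 1 library per fibroblast type, and by the low counts of Triml1 and Triml2 in CASP lines, where 4 to 23 reads stand behind a value.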
